A study of Mus musculus with 16 samples.

Results

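The Bcl2 family was followed through 10 genes in differentiating mouse embryonic stem cells (mESCs): Bcl2l15, the pro-survival genes Bcl2, Bcl2l1, Bcl2l2 and Mcl1, the pore-forming effector Bak1, and the BH3-only genes Bcl2l11, Bid, Bmf and Bik. They were chosen by their membership of the family and by the fall of Bcl2l15 at 24 h, so the 24 h values of Bcl2l15 are given as a description with no test. The 10 genes had 21 probes among the 60273 on the array, of which 18 passed a filter on dim signals, and each of the 10 kept at least 1 probe among the 29351 genes tested. Bcl2l15 passed through the DMSO arrays and the 6 h arrays alone.

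Proteins of the Bcl2 family set whether the outer mitochondrial membrane stays intact. Pro-survival members hold the pore-forming effectors in check, BH3-only members bind and neutralise them or activate the effectors directly, and an open membrane releases cytochrome c, which starts the caspases. Mouse embryonic stem cells are known to be primed for this route, and many cells die by it when they leave the pluripotent state.

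CGR8-Myh6-GFP mESCs carry a green fluorescent protein gene read from the promoter of Myh6, the cardiac alpha myosin heavy chain. They were kept without feeder cells, differentiated on gelatine in medium without the stem cell factor LIF, and on day 4 received WS1442, a hawthorn (Crataegus) extract, at 0.25 mg/mL, the MeOH eluate, a methanol fraction of that extract, at 0.1 mg/mL, or the vehicle DMSO. Total RNA was taken after 6 h or 24 h and read on 1-colour Agilent arrays, with 2 DMSO, 3 WS1442 and 3 MeOH eluate arrays at each time. All groups share the line, the medium and the vehicle, and a whole culture was read, so a lower share of cells of a type and less RNA per cell cannot be told apart. The labels do not say whether arrays of a group came from separate cultures, so p-values measure the spread between arrays, which may be technical.

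Each time point lay on a slide of its own, so a level at 6 h and a level at 24 h cannot be told apart from a slide difference, whereas each treatment was compared with DMSO within its slide. Between 55.1% and 63.0% of spots stood well above background on each of the 16 arrays. The 2 DMSO arrays at 24 h nearly spanned that range, at 63.0% and 55.5%. The RNA integrity number was 8.6 for WS1442 24 h replicate 2 and at least 9.6 for the others. Dye labelling at 24 h differed by group, at 26.1 and 25.8 pmol Cy3 per microgram with DMSO. It was 31.8, 32.8 and 32.3 with WS1442, and 30.3, 28.2 and 27.1 with the MeOH eluate. Its part in the differences at 24 h was not tested. All 8 pluripotency markers and all 8 markers of primitive streak and early mesoderm were well above background on every array, while Myh6 was so on no array with the MeOH eluate at 6 h and on no array at 24 h. Of the 8 cardiac progenitor and cardiomyocyte markers, 7 were well above background on all arrays of each group. The cultures therefore carried stem cell, early mesoderm and cardiac marker transcripts, and the cardiac reporter's own gene was at background at 24 h.

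Bcl2l15, also called Bfk, is a distant member of the family that was described mainly from the gut and that promotes cell death weakly when overproduced. The array holds a probe for each of its transcripts NM_001142959 and NM_001142960, and the first 30 bases of both are shown because every value of Bcl2l15 below comes from the first:
NM_001142959 probe: cgtcctctgacagattgggtgggcgattga
NM_001142960 probe: ctcgtccaggtttatcttatggacttatag
They had no run of more than 5 bases in common. The NM_001142960 probe was well above background on 0 of the 16 arrays, and the NM_001142959 probe on 10 of them.

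At 24 h the NM_001142959 probe read 5.92 and 5.43 (log2 signal) in the DMSO arrays, both well above background. It read 3.35, 3.75 and 2.89 with WS1442, and 2.22, 2.36 and 1.50 with the MeOH eluate, and none of these 6 readings stood well above background. Both DMSO arrays lay above all 6 treated arrays. Each treated reading was below the lowest signal that passed the background limit on its own array, between 3.56 and 4.01, so no fold was measured and the treatments cannot be ranked. With the treated readings raised to that lowest signal, the WS1442 group was 4.03-fold lower than DMSO (DMSO mean 5.67, measured WS1442 mean 3.33, raised mean 3.66). The MeOH eluate group was 3.53-fold lower (measured mean 2.03, raised mean 3.85). These are not minimum folds, because the fold is set by the background: with another background correction (normexp) the same differences were -0.67 and -0.83 on the log2 scale.

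**Figure D1:**
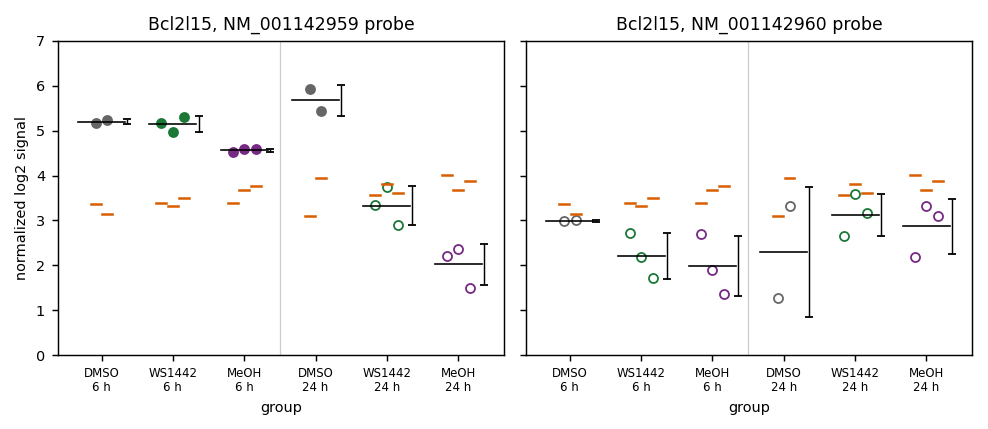
Log2 signal of the Bcl2l15 NM_001142959 probe (left) and NM_001142960 probe (right) on each of the 16 arrays, by group (x axis) after quantile normalization. Filled points were well above background and open points were not, the black line is the group mean, the bar its SD, and orange ticks give the lowest signal among probes well above background on that array. On the left the 6 treated arrays at 24 h are open and lie below both DMSO arrays, and on the right every array is open.

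At 6 h, which the choice of genes did not use, all 8 arrays measured Bcl2l15. The DMSO arrays read 5.16 and 5.24, the WS1442 arrays 5.18, 4.96 and 5.31, and the MeOH eluate arrays 4.52, 4.58 and 4.59. WS1442 overlapped DMSO, with a difference of -0.05 ± 0.29 (log2, SE; limma, adjusted p = 0.959). All 3 MeOH eluate arrays lay below both DMSO arrays and below all 3 WS1442 arrays, but the difference from DMSO of -0.63 ± 0.29 had an adjusted p of 0.162 in limma, and that from WS1442, -0.58 ± 0.26, one of 0.161. Neither passed the threshold of an adjusted p under 0.05.

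Marker lists of other cell types moved unevenly at 24 h, and a sum is carried by the brightest genes of a list. The summed log2 signal of 8 endothelial genes was 11.37 to 11.43 with DMSO, 10.53 to 10.57 with WS1442 and 9.51 to 9.66 with the MeOH eluate, with 7, 7 and 6 of the 8 well above background on all arrays of the group and Emcn on none. Of the 7 tested, 1 fell with WS1442 and 2 with the MeOH eluate, with medians of 0.02 and -0.15. The sum of 7 primitive blood genes was 9.33 to 9.35, 8.81 to 8.91 and 8.54 to 8.87, with 6, 7 and 7 well above background, and here 1 fell with WS1442 and 1 rose and 1 fell with the MeOH eluate (medians -0.20 and 0.09). The 12 genes of definitive and gut endoderm summed to 12.60 to 12.75, 12.73 to 13.04 and 12.47 to 12.58, with 10 well above background in each group and Ttr in none, and of the 10 tested 2 rose and 3 fell with WS1442 and 4 fell with the MeOH eluate (medians -0.28 and -0.28). Primitive streak and early mesoderm genes summed to 12.82, 12.75 to 12.95 and 11.99 to 12.30, and of 8 tested 2 fell with WS1442 and 4 with the MeOH eluate (medians -0.17 and -0.31). Neuroectoderm genes summed to 11.69 to 11.73, 12.22 to 12.37 and 11.96 to 12.16, and of 6 tested 3 rose with WS1442, and 2 rose and 1 fell with the MeOH eluate (medians 0.48 and 0.14). Cardiac progenitor and cardiomyocyte genes summed to 13.84 to 13.85, 13.70 to 13.97 and 13.69 to 13.85. Of 7 tested, 1 rose and 2 fell with WS1442 and 3 fell with the MeOH eluate (medians -0.04 and -0.34). The part of these cell types in the Bcl2l15 signal was not tested.

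The promoter of Bcl2l15 is shown because it differs in composition from those of the other members. RefSeq (GRCm38.p6) windows from 250 bases before to 50 after a gene's start were at hand for 9 of the 10 genes, 14 windows in all. The Bcl2l15 window, chr3:103832446-103832745 on the plus strand, holds 0 CpG and 38.3% G and C, and 5.43% of all 32851 windows hold as few CpG. The 13 windows of the other members held 1 to 44, and the median over all windows was 7. Capitals mark AGATAA, the core of a GATA site, on either strand:
Bcl2l15 promoter: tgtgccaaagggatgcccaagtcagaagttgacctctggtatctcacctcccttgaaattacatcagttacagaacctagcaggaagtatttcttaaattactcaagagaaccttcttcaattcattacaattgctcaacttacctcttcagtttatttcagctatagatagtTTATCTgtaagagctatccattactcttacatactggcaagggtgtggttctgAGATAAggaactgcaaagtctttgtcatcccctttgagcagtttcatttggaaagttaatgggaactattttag
The 2 matches do not overlap. At least 1 match was in 11.2% of all windows and at least 2 in 1.14%, and the letters TATAAA, in 13.6% of windows on either strand, did not occur in this one. A match is a description of the letters and says nothing of binding in these cells.

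The genes whose pattern was most like that of Bcl2l15 were Mthfd2, a mitochondrial folate enzyme (Pearson r = 0.968 over 16 arrays after each time point's mean was removed, Spearman rho = 0.900), Itga9 (r = 0.964), Capn5 (r = 0.964), Dlk1 (r = 0.960) and Trib3 (r = 0.960). All 5 stood well above background on every array, so unlike Bcl2l15 they have a measured fold at 24 h. Mthfd2 differed from DMSO by -0.90 with WS1442 and -1.51 with the MeOH eluate (log2), and Trib3, a pseudokinase of the integrated stress response, by -1.11 and -1.97. They were picked for this likeness and share arrays and slides with Bcl2l15, and 6 of the 16 Bcl2l15 readings were not well above background, so the likeness is a description with no test. Of the genes on either side of Bcl2l15 on chromosome 3, Ap4b1 differed from DMSO at 24 h by -0.20 ± 0.06 with WS1442 (limma, adjusted p = 0.0196, and 0.211 without DMSO 24 h replicate 1) and -0.10 ± 0.06 with the MeOH eluate (adjusted p = 0.254), and Ptpn22 by 0.41 ± 0.10 (adjusted p = 0.00651) and 0.06 ± 0.10 (adjusted p = 0.79).

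Among the other 9 members at 24 h, WS1442 changed 4 (44.4%) in limma at an adjusted p under 0.05, against 24.7% of all 29349 genes tested. Bcl2l1, Bid and Bik rose and Bcl2l11 fell. The MeOH eluate changed 5 of 9 (55.6%), against 18.2% of all genes, with Bcl2l1, Mcl1, Bak1 and Bid up and Bcl2l11 down. The median change of the 9 was 0.03 with WS1442 and 0.29 with the MeOH eluate (log2), where the medians of all genes were 0.05 and 0.01. By the study's limits, over 2-fold with an unadjusted p under 0.05, WS1442 changed 1 of the 9, Bik, against 2.08% of all genes, and the MeOH eluate 0, against 2.97%. Without DMSO 24 h replicate 2 the MeOH eluate count was 3. The 2 DMSO arrays entered both comparisons, so the counts are not independent of each other. Each gene was read from its brightest probe, and the probes of Bcl2l1 and of Bcl2l11 disagreed, as given below. With the mean of kept probes the WS1442 count was 1, against 21.9% of all genes. With the MeOH eluate Bcl2l11 then rose by 0.37, and Bcl2l1 did not pass the threshold.

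**Figure D2:**
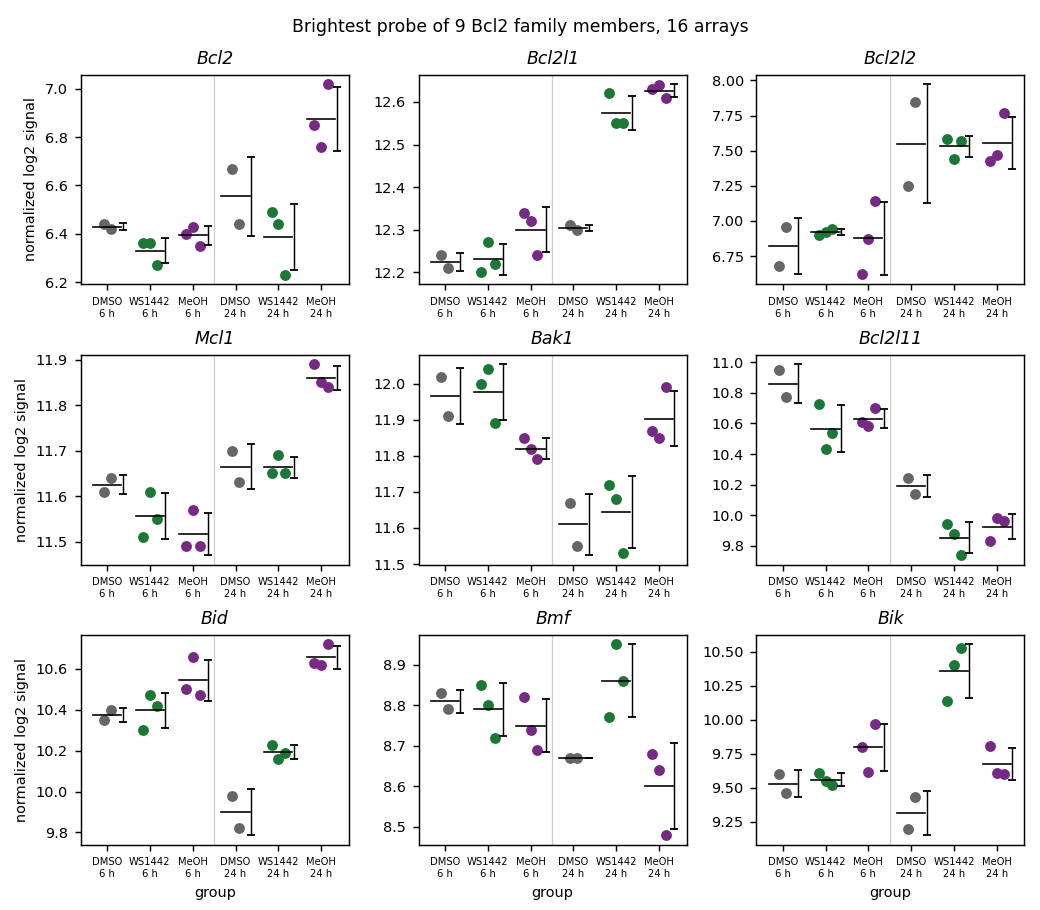
Log2 signal of the probe that stands for each member on all 16 arrays, 1 panel a gene and 6 groups on each x axis. Filled points were well above background and open points were not, the black line is the group mean and the bar its SD; Bid and Bik separate at 24 h, and Bcl2l2 does not.

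Of the pro-survival genes, Bcl2l1, which encodes Bcl-xL, rose with both treatments at 24 h. Its brightest probe read 12.31 and 12.30 with DMSO, 12.62, 12.55 and 12.55 with WS1442, and 12.63, 12.64 and 12.61 with the MeOH eluate. Every treated array lay above both DMSO arrays, by 0.27 ± 0.04 for WS1442 (log2, SE; limma, adjusted p = 0.00036) and 0.32 ± 0.04 for the MeOH eluate (adjusted p = 6.69e-05), rises of 1.20-fold and 1.25-fold. Another bright Bcl2l1 probe, for NM_001289716, has 29 consecutive bases in common with the first, and it read 12.03 and 11.93 with DMSO, 12.18, 11.97 and 11.95 with WS1442, and 12.10, 12.15 and 12.16 with the MeOH eluate. Its changes of 0.06 and 0.16 had adjusted p of 0.533 and 0.0881 (limma), and the 2 dimmer probes did not pass the threshold either, so the rise of Bcl2l1 rests on 1 of 4 probes. The WS1442 rise was 0.15 with an adjusted p of 0.0795 when arrays were scaled by the 75th percentile, and -0.00 when the probes were averaged, where that of the MeOH eluate was 0.17 (adjusted p = 0.215).

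Mcl1, a short-lived pro-survival protein on which embryonic stem cells rely, read 11.70 and 11.63 with DMSO at 24 h, 11.65, 11.69 and 11.65 with WS1442, and 11.89, 11.85 and 11.84 with the MeOH eluate. Only the MeOH eluate arrays lay clear of DMSO, higher by 0.19 ± 0.04 (limma, adjusted p = 0.00674). WS1442 differed by -0.00 ± 0.04, with a 95% interval of -0.10 to 0.09. A probe for another Mcl1 transcript, AK213359, rose with both, by 0.25 ± 0.05 (adjusted p = 0.00398) and 0.24 ± 0.05 (adjusted p = 0.00635). Without DMSO 24 h replicate 2 the adjusted p of the MeOH eluate was 0.0756 for the first probe, and those of the AK213359 probe were 0.0527 for WS1442 and 0.0842 for the MeOH eluate. With 75th percentile scaling the first probe's change was 0.14 with an adjusted p of 0.147, and the AK213359 changes had adjusted p of 0.066 and 0.0796.

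Bcl2, which gave the family its name, read 6.67 and 6.44 with DMSO at 24 h, 6.49, 6.44 and 6.23 with WS1442, and 6.85, 6.76 and 7.02 with the MeOH eluate. The MeOH eluate arrays were above both others, but the difference from DMSO of 0.32 ± 0.11 had an adjusted p of 0.0674 (limma). Bcl2l2, which encodes Bcl-w, overlapped in every comparison, and its differences from DMSO lay between -0.02 and 0.10 with a SE of 0.17.

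Bak1, the only effector among the 10, read 11.67 and 11.55 with DMSO at 24 h, 11.72, 11.68 and 11.53 with WS1442, and 11.87, 11.85 and 11.99 with the MeOH eluate. It rose with the MeOH eluate by 0.29 ± 0.07 (limma, adjusted p = 0.00653), and WS1442 overlapped DMSO at 0.03 ± 0.07. Without DMSO 24 h replicate 2 the rise was 0.23 with an adjusted p of 0.0725.

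Bid links death receptors to mitochondria once caspase-8 has cut it, and it rose in a graded order. Its probe read 9.98 and 9.82 with DMSO at 24 h, 10.23, 10.16 and 10.19 with WS1442, and 10.63, 10.62 and 10.72 with the MeOH eluate. The 3 groups did not overlap. WS1442 raised Bid by 0.29 ± 0.07 (limma, adjusted p = 0.00627) and the MeOH eluate by 0.76 ± 0.07, 1.69-fold (adjusted p = 3.16e-06). Beside the methods' t-test, the MeOH eluate rise passed the threshold in all 26 alternatives and that of WS1442 in 25, the exception being the fit without DMSO 24 h replicate 2 (0.22, adjusted p = 0.0767).

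Bik, a BH3-only protein of the endoplasmic reticulum, read 9.20 and 9.43 with DMSO at 24 h, 10.14, 10.40 and 10.53 with WS1442, and 9.81, 9.61 and 9.60 with the MeOH eluate. WS1442 stood highest and raised it 2.05-fold, by 1.04 ± 0.12 (limma, adjusted p = 4.29e-05). The MeOH eluate arrays also lay above both DMSO arrays, with a difference of 0.35 ± 0.12 and an adjusted p of 0.0519. A dim second probe, for XM_006520354, differed by -0.18 and -0.08 with a SE of 0.41, too wide to set against the first. When both probes were averaged, the WS1442 change was 0.43 with an adjusted p of 0.181, and that between MeOH eluate and WS1442 was -0.29 with one of 0.39.

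Bmf, which is held at the cytoskeleton until released, read 8.67 on both DMSO arrays at 24 h, 8.77, 8.95 and 8.86 with WS1442, and 8.68, 8.64 and 8.48 with the MeOH eluate. WS1442 lay above DMSO by 0.19 ± 0.08 (limma, adjusted p = 0.0844) and the MeOH eluate differed by -0.07 ± 0.08 (adjusted p = 0.599).

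Bcl2l11 encodes Bim, which binds all pro-survival members, and its 4 probes disagreed in direction. Their first 30 bases are shown because the change at 24 h depends on which is read:
XM_006498615 probe: tttgtttcccttgcctcctcggtggcgacg
NM_009754 probe: tatagtccccatcactaatgtcagaaccca
NM_207680 probe: acccatgagttgtgacaagtcaacacaaac
NM_001284410 probe: acccctcaaggaaggatggctctgcatgtt
No 2 of them share a run of more than 7 bases. The array's annotation assigns 5, 6, 7 and 2 transcripts to them, and the first and second have 3 of these in common, so they do not each mark an isoform of their own.

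The XM_006498615 probe, the brightest, read 10.24 and 10.14 with DMSO at 24 h, 9.94, 9.88 and 9.74 with WS1442, and 9.83, 9.98 and 9.96 with the MeOH eluate. All treated arrays lay below DMSO, lower by 0.34 with WS1442 and 0.27 with the MeOH eluate (SE 0.09; limma, adjusted p = 0.012 and 0.0478). The NM_009754 probe read 9.68 and 9.53 with DMSO, 10.29, 10.32 and 10.40 with WS1442, and 10.42, 10.31 and 10.29 with the MeOH eluate. Here all treated arrays lay above DMSO, by 0.73 ± 0.08 with either treatment (adjusted p = 3.33e-05 and 1.64e-05). The NM_207680 probe rose by 0.63 ± 0.11 with the MeOH eluate (adjusted p = 0.000667) and differed by 0.29 ± 0.11 with WS1442 (adjusted p = 0.0578), and the NM_001284410 probe rose by 0.39 ± 0.13 with the MeOH eluate (adjusted p = 0.0459) and differed by 0.12 ± 0.13 with WS1442 (adjusted p = 0.561). The NM_009754 rise at 24 h held with each array left out, with an adjusted p of at most 0.000525. The others were less firm. Without DMSO 24 h replicate 1 the XM_006498615 adjusted p were 0.116 and 0.287, without WS1442 24 h replicate 3 that of WS1442 was 0.0532 (that of the MeOH eluate passed in only 9 of 26 alternatives), and without DMSO 24 h replicate 2 that of NM_001284410 was 0.400. The mean of the 4 probes moved by 0.20 with WS1442 and 0.37 with the MeOH eluate, against the direction of the brightest.

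**Figure D3:**
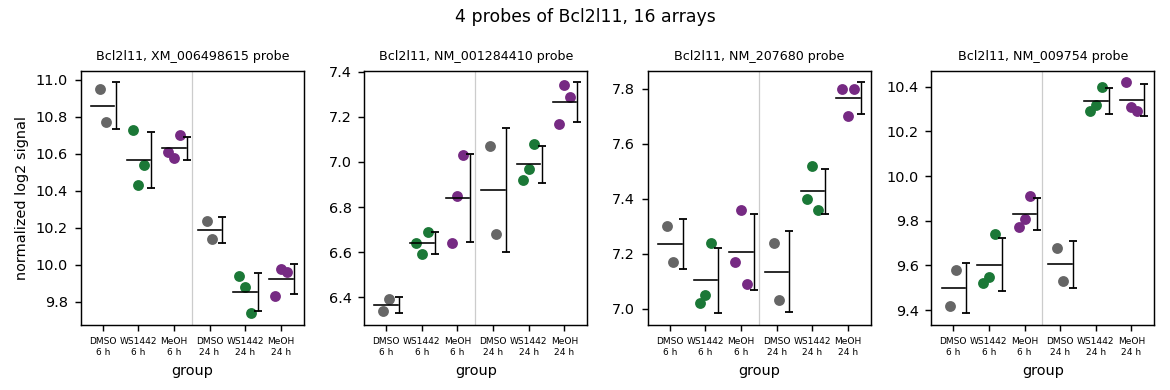
Log2 signal of the 4 Bcl2l11 probes on the 16 arrays, 1 panel a probe, by group on the x axis, with filled points for arrays well above background, a black line for the group mean and a bar for its SD. At 24 h the XM_006498615 probe is lower and the NM_009754 probe higher in every treated array than in DMSO.

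At 6 h WS1442 changed 0 of the 10 members in limma (adjusted p under 0.05), against 5.55% of all 29341 genes tested, with 1 at an unadjusted p under 0.05, Bcl2l11. The methods' t-test called 0 of all genes there and so says nothing of the members. By the study's limits it was also 0, against 0.436% of all genes. The MeOH eluate changed 0 of 10 against 17.0%, with 5 at an unadjusted p under 0.05 (Mcl1, Bid, Bcl2l11, Bik and Bcl2l15), and 0 by the study's limits against 2.10%. The methods' t-test called 0 members, and 0.0239% of all genes. The 10 differences from DMSO ran from -0.29 to 0.10 with WS1442 and from -0.63 to 0.27 with the MeOH eluate. Beside the brightest probes, the Bcl2l11 probes for NM_009754 and NM_001284410 were already higher with the MeOH eluate at 6 h, by 0.33 ± 0.08 (adjusted p = 0.0107) and 0.48 ± 0.13 (adjusted p = 0.0192). Without DMSO 6 h replicate 1 these were 0.25 (adjusted p = 0.16) and 0.46 (adjusted p = 0.133).

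**Figure D4:**
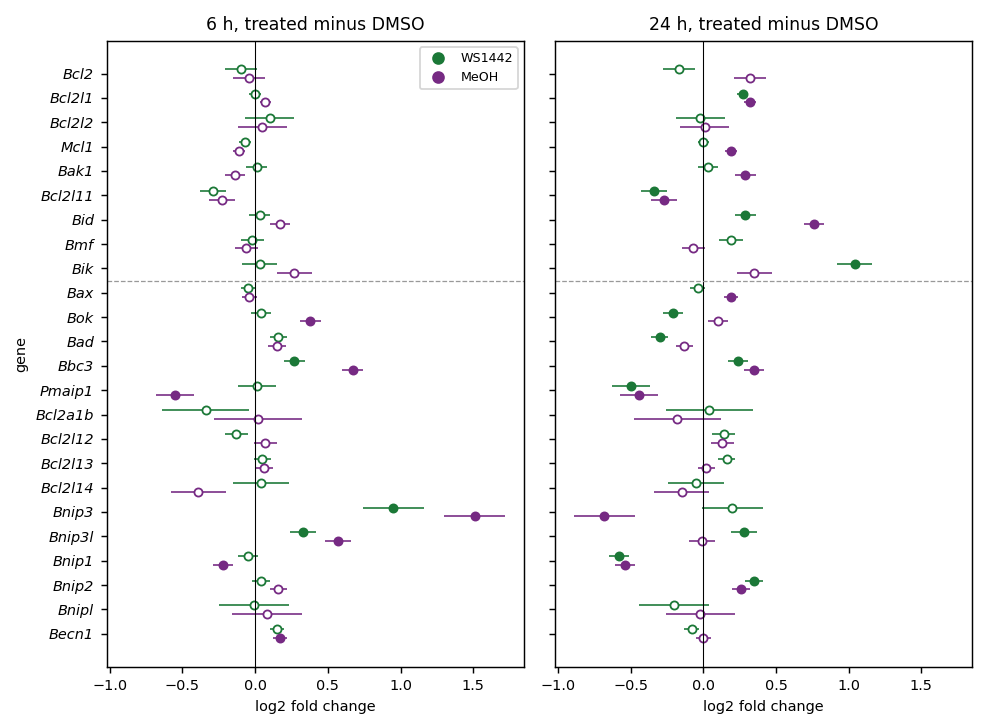
Log2 difference from DMSO (x axis, ± SE) of the members above the dashed line and of other Bcl2 family genes below it, for both treatments at 6 h and 24 h. Filled points have an adjusted p under 0.05 and open points do not; Bcl2l15 and Hrk, which were well above background on no array of some groups, are left out, and no member is filled at 6 h.

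Whether the treatments themselves differed was tested directly, with the doses as stated above, which were not the same. At 24 h 6 of the 9 members without Bcl2l15 differed between MeOH eluate and WS1442, 66.7% against 14.6% of all genes. The MeOH eluate was higher for Bcl2 by 0.49 ± 0.10 (limma, adjusted p = 0.00542), for Mcl1 by 0.19 ± 0.04 (adjusted p = 0.00516), for Bak1 by 0.26 ± 0.06 (adjusted p = 0.00996) and for Bid by 0.46 ± 0.06 (adjusted p = 0.000342). It was lower for Bik, by -0.68 ± 0.11 (adjusted p = 0.00089), and for Bmf, by -0.26 ± 0.07 (adjusted p = 0.018). The AK213359 probe of Mcl1 did not separate the treatments, with means of 11.69 with the MeOH eluate and 11.70 with WS1442. With the mean of kept probes Mcl1 differed by 0.09 (limma, adjusted p = 0.171) and Bik by -0.29 (adjusted p = 0.39). Bcl2l15 was not well above background in either group and was not compared. Bcl2l1 and Bcl2l11 did not pass, at 0.06 (95% interval -0.02 to 0.13) and 0.07 (-0.10 to 0.24), nor did Bcl2l2 at 0.03 (-0.30 to 0.36). Bak1 fell short without WS1442 24 h replicate 3 (0.20, adjusted p = 0.061) or MeOH eluate 24 h replicate 3 (adjusted p = 0.0552), and Bmf without WS1442 24 h replicate 2 (adjusted p = 0.0795) or 3 (0.0604) or MeOH eluate replicate 3 (0.0912).

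At 6 h 0 of 10 differed between the treatments in limma against 12.1% of all genes, with 4 at an unadjusted p under 0.05 (Bak1, Bid, Bik and Bcl2l15). The methods' t-test called 0 members, and 0.256% of all genes.

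An effect at 24 h was also compared with the same effect at 6 h, each relative to the DMSO arrays of its slide. Among the 9 members without Bcl2l15, the WS1442 effect was larger at 24 h for 2, against 12.7% of all genes, Bik by 1.01 ± 0.17 (limma, adjusted p = 0.00283) and Bcl2l1 by 0.26 ± 0.06 (adjusted p = 0.0107). The MeOH eluate effect was higher at 24 h for 4, against 7.69%, Bid by 0.59 ± 0.10 (adjusted p = 0.0016), Bak1 by 0.43 ± 0.09 (adjusted p = 0.0108), Mcl1 by 0.30 ± 0.06 (adjusted p = 0.00787) and Bcl2l1 by 0.25 ± 0.06 (adjusted p = 0.016). For Bak1 and Mcl1 the effect at 6 h was negative, -0.14 and -0.11 (limma, adjusted p = 0.172 and 0.111), and that at 24 h was 0.29 and 0.19. Without DMSO 6 h replicate 1, Bcl2l1 fell short in both (adjusted p = 0.054 and 0.0764) and Bak1 in the latter (0.0687), so the counts were 1 and 2. The Bcl2l1 values are the least firm, at 0.10 (adjusted p = 0.47) with WS1442 and 0.23 (adjusted p = 0.125) with the MeOH eluate under 75th percentile scaling, 0.17 (adjusted p = 0.0926) with the MeOH eluate under normexp, and -0.03 (adjusted p = 0.901) and 0.22 (adjusted p = 0.316) with the mean of probes, which brought Bik to 0.50 (adjusted p = 0.331).

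The rest of the family was read from a list of 20 further genes, of which 16 were tested. Bbc3, which encodes Puma, a BH3-only product of p53, rose in all 4 comparisons, by 0.27 ± 0.07 and 0.67 ± 0.07 at 6 h with WS1442 and MeOH eluate (limma, adjusted p = 0.0361 and 1.48e-05) and by 0.24 ± 0.07 and 0.35 ± 0.07 at 24 h (adjusted p = 0.0179 and 0.00205). Pmaip1, which encodes Noxa, another p53 product and the partner that marks Mcl1 for destruction, fell in 3, by 0.55 with the MeOH eluate at 6 h and by 0.50 and 0.44 with WS1442 and MeOH eluate at 24 h (SE 0.13, adjusted p = 0.00839, 0.00928 and 0.0244). These relatives of the BH3-only members thus moved in opposite directions. Bad, also BH3-only, fell with WS1442 at 24 h (-0.30 ± 0.06, limma, adjusted p = 0.00312). Bnip1 fell with both treatments at 24 h (-0.58 and -0.54, SE 0.07, adjusted p = 4.15e-05 and 4.44e-05), and Bnip2 rose (0.35 and 0.26, SE 0.06). Bok rose with the MeOH eluate at 6 h (0.38) and fell with WS1442 at 24 h (-0.21, and -0.34 to -0.08 with 1 array left out). Bnip3l and Becn1 rose where they passed the threshold. Bnip3, a hypoxia-induced mitophagy receptor, rose at 6 h by 0.95 ± 0.21 and 1.51 ± 0.21 (adjusted p = 0.018 and 0.00021) and with the MeOH eluate fell at 24 h by 0.68 (adjusted p = 0.0346). Bax, the partner of Bak1, rose at 24 h with the MeOH eluate, by 0.19 ± 0.05 (adjusted p = 0.00965).

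In all, 3 of the 16 rose and 0 fell with WS1442 at 6 h (against 5.55% of all genes called), 5 rose and 2 fell with the MeOH eluate at 6 h (against 17.0%), 3 rose and 4 fell with WS1442 at 24 h (against 24.7%), and 3 rose and 3 fell with the MeOH eluate at 24 h (against 18.2%). Their medians of 0.04, 0.11, 0.00 and -0.01 stood beside -0.01, -0.00, 0.05 and 0.01 for all genes. In each fit with an array left out whose count follows, fewer of all genes were called too. The WS1442 count at 6 h was 0 if DMSO 6 h replicate 1 (Bbc3 then 0.14, adjusted p = 0.531, and Bnip3 0.62, adjusted p = 0.33) or WS1442 6 h replicate 3 was left out and 1 if WS1442 6 h replicate 2 was, and the MeOH eluate count at 6 h was 4 if DMSO 6 h replicate 2 was. At 24 h the WS1442 count was 3 if DMSO 24 h replicate 1 was left out and 4 if WS1442 24 h replicate 3 was. Without DMSO 24 h replicate 1 the adjusted p of Pmaip1 at 24 h were 0.121 and 0.234, and its value at 6 h was 0.107 if DMSO 6 h replicate 2 was left out. Leaving out DMSO 24 h replicate 2 brought Bnip3, Bax and, with WS1442, Bbc3 to 0.191, 0.065 and 0.0814.

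Genes that act around the family were read from lists, to be set against the same shares of all genes called, 5.55% and 17.0% at 6 h and 24.7% and 18.2% at 24 h, and the same medians of all genes, -0.01, -0.00, 0.05 and 0.01. Of 22 p53 targets, 6 rose and 1 fell with WS1442 at 6 h, 9 rose and 3 fell with the MeOH eluate at 6 h, 12 rose and 2 fell with WS1442 at 24 h, and 16 rose and 2 fell with the MeOH eluate at 24 h, among them Cdkn1a, the p21 cell cycle inhibitor, by 0.90 ± 0.07 and 0.79 ± 0.07 at 24 h (limma, adjusted p = 2.05e-06 and 1.58e-06). Their medians were 0.16, 0.14, 0.30 and 0.39. No member is on this list, but Bax, Bbc3 and Pmaip1 were also counted above and Fas is also a death receptor. Of 17 genes of the mitochondrial route, among them the caspases that act after the pore opens, 4 rose and 0 fell, 5 rose and 1 fell, 6 rose and 2 fell, and 5 rose and 2 fell in the same order, with Casp9, the initiator caspase, up by 0.41 ± 0.08 and 0.38 ± 0.08 at 6 h (adjusted p = 0.00808 and 0.00335), and Parp1, a caspase substrate, down by 0.34 and 0.33 at 24 h (adjusted p = 0.00354 and 0.00513). Their medians were 0.14, 0.08, 0.14 and 0.09. Of 11 death receptor genes, which lie upstream of Bid, 4 rose and 1 fell, 4 rose and 1 fell, 4 rose and 2 fell, and 3 rose and 2 fell, with Casp8, whose product cuts Bid, up by 0.26 ± 0.09 and 0.45 ± 0.09 at 24 h (adjusted p = 0.049 and 0.00264). Mlkl (0.77 and 0.76) and Tradd (0.17 and 0.29) also rose with both treatments at 24 h. Tnfrsf1a, up with both at 6 h (0.33 and 0.26), fell with both at 24 h (-0.56 and -0.41). The medians of the 11 were 0.14, 0.06, 0.06 and 0.05.

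Of 8 inhibitors of apoptosis 0 changed in limma in any of the 4 comparisons, with 3 at an unadjusted p under 0.05 for WS1442 at 6 h, 1 for the MeOH eluate at 24 h and 0 in the others, and medians of 0.24, 0.01, -0.02 and 0.11. The methods' t-test called 0 of the 8 too, where it called 0%, 0.0239%, 0.583% and 1.09% of all genes. Of 10 FoxO and integrated stress response genes, which feed the BH3-only genes, 2 rose and 1 fell, 2 rose and 2 fell, 1 rose and 4 fell, and 0 rose and 3 fell, with Trib3, described above for its likeness to Bcl2l15, Chac1 and Asns down with both treatments at 24 h. Chac1 fell by 0.59 and 1.93 (adjusted p = 0.00302 and 1.34e-07), and the medians of the 10 were 0.03, -0.06, -0.08 and -0.07. Without DMSO 6 h replicate 1, which left 1 DMSO array at 6 h, most WS1442 calls at 6 h were lost. This held for the p53, mitochondrial, death receptor and stress lists. Calls over all genes fell too, so the loss was not particular to these lists. The adjusted p of Casp9 were then 0.164 and 0.0803, without DMSO 24 h replicate 1 that of Parp1 with the MeOH eluate was 0.0599, and without DMSO 24 h replicate 2 that of Casp8 with WS1442 was 0.281.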

How the data were processed

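A total of 16 RNA samples were hybridised, 1 array each. The authors deposited the scanner output of Agilent Feature Extraction 11.5.1.1, whose processed signal is a background-corrected intensity, and a matrix of intensities. Per the methods the data were quantile normalized, and the log2 of the matrix was taken here. Here the processed intensity was taken as log2, spots flagged as non-uniform were set to missing, the 16 arrays were quantile normalized, and spots of a probe were averaged. Probes whose spots passed the scanner's background limit on all arrays of 1 or more groups were kept, 36729 of 60273, and the brightest kept probe stood for its gene. Groups came from the sample titles. Group means were fitted in limma 3.58.1 (R 4.3.3, with trend), 8 comparisons, with Benjamini-Hochberg adjustment over all genes, or over all kept probes for a single probe. A change was called at an adjusted p under 0.05.

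The gene name column named 6 probes of 4 members and RefSeq accessions (GRCm38.p6, without version) the other 15. Each column of the deposited matrix correlated best with its own array and served as an alternative. The self-test ran on simulated data. Genes named from the rest of the family were those that passed the test, and the pathway genes were picked from those called in both treatments. The members and lists were chosen with earlier results of these data known. Precision is limited by 2 or 3 arrays a group, and a probe at background gives no measured fold. Alternatives were 75th percentile scaling, normexp (offset 50), no filter, the deposited matrix, the mean of kept probes, no trend, the methods' t-test, 1 time point alone, replicate and slide row blocks, array weights, and leaving out each array. Scan time did not divide a slide and was not fitted as a block.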

Additional observations from a re-analysis of the deposited data

Results flagged for a closer look

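For 6 effects of the members, the change against DMSO at 24 h differed from that at 6 h by a test of the difference itself (limma, adjusted over all genes, adjusted p under 0.05). With WS1442 2 of 9 members differed, against 12.7% of all genes. They were Bik, where the difference of the 2 effects was 1.01 on the log2 scale, and Bcl2l1, where it was 0.26. With the MeOH eluate 4 of 9 differed, against 7.69%: Bid at 0.59, Bak1 at 0.43, Mcl1 at 0.30 and Bcl2l1 at 0.25. Both Bcl2l1 effects were lost in several alternatives, and that of Bik with the mean of kept probes. Groups of 2 or 3 arrays are too small for a test of single arrays that stand apart. Bcl2l15 was left out because its 24 h values chose the genes.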

How the results depend on the processing

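Counts of members called stayed within 1.5 times the reported ones under most alternatives. The exceptions were as follows. At 6 h normexp called 1 member for WS1442 and 2 for the MeOH eluate, against 5.17% and 17% of all genes. Array weights called 1 and 1, against 6.86% and 21.7%. With 75th percentile scaling 1 was called for the MeOH eluate at 6 h (14.3% of all genes) and 1 between treatments at 6 h (14.1%). That scaling also called 1 for WS1442 at 24 h minus 6 h (15.3%). The time point alone gave 1 for the MeOH eluate at 6 h (12%). With the mean of kept probes WS1442 had 1 at 24 h, against 21.9% of all genes, and 0 at 24 h minus 6 h, against 10.2%. Bcl2l1 turned to -0.00 and -0.03 in these, Bcl2l11 at 24 h to 0.20 and, with the MeOH eluate, 0.37, and Aen to -0.02. Vdac2 turned to -0.11 with WS1442 at 24 h under 75th percentile scaling. The methods' t-test, adjusted over all genes, gave 0 for WS1442 and 1 for the MeOH eluate at 24 h and 1 between treatments at 24 h, where it called 0.583%, 1.09% and 0.712% of all genes. The cause was not tested.

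Among the members' other probes, 2 were called for the MeOH eluate at 6 h, 2 for WS1442 and 4 for the MeOH eluate at 24 h; the t-test gave 0 for each, the replicate block 1 for the first and 75th percentile scaling 1 for the second. Among the 16 other family genes, WS1442 at 6 h had 1 without the filter, without trend or with the time point alone, and 0 with the t-test or the replicate block, and the t-test gave 1 for the MeOH eluate at 6 h and 0 for both at 24 h. These last 2 groups of counts were added after the data were seen. The probe counts have no share of all kept probes beside them, so they are a description alone.

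Leaving out each array in turn gave 0 to 1 members for either treatment at 6 h, 3 to 4 for WS1442 and 3 to 6 for the MeOH eluate at 24 h, 0 and 4 to 6 between treatments at 6 h and 24 h, and 1 to 2 and 2 to 4 for the 24 h minus 6 h effects. The other probes gave 0, 0 to 3, 1 to 3 and 2 to 4, and the other family genes 0 to 3, 4 to 8, 3 to 8 and 4 to 6. The share of all genes called also changed with the array left out, so these ranges have no fixed share beside them. With a group down to 1 array, that array was assumed to vary like the others.

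Deviations of arrays with the same replicate number correlated with r from -0.102 to 0.305 at 6 h and -0.236 to 0.103 at 24 h. The deviations of 2 DMSO arrays from their mean mirror each other, so these values cannot decide whether the numbers pair arrays. With the replicate block the member counts were 0 and 0 at 6 h, 4 and 4 at 24 h, 0 and 6 between treatments, and 2 and 3 for the 24 h minus 6 h effects. The t-test gives no 24 h minus 6 h value, and the deposited matrix and the mean of probes none for single probes. Bcl2l15 at 24 h is limited by its signal over background.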
